A study of Mus musculus with 8 samples.

Results

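Cytosolic nucleic acid sensing is described here in white fat from around the epididymis of male mice, through 10 genes named for their known roles: the sensors Ddx58, Ifih1, Dhx58 and Zbp1, the adaptors Mavs and Tmem173, the kinase Tbk1, the transcription factor Irf3, and the enzymes Trex1 and Samhd1. They were matched by gene name in a table of 28295 genes, and 9 of the 10 had a row. Trex1 was not analysed here. Of the 2 groups, WT (4 libraries) came from mice with loxP-flanked Cul3 alleles and no Cre. The KO group (4 libraries) carried the same alleles and an AdipoQ-Cre transgene, driven by the adiponectin promoter, which is active in adipocytes and leaves Cul3 intact in the other cells of the fat. Both groups ate a Western diet for 8 weeks and were fasted for 6 h before the tissue was taken. The comparison asks how fat changes when cullin 3, a scaffold of ubiquitin ligases, is lost from adipocytes. The labels give neither strain nor age, and nothing says which library came from which mouse, so p-values measure the spread between these libraries.

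As background, cells watch their cytosol for RNA and DNA that should not be there. RIG-I (encoded by Ddx58) and MDA5 (Ifih1) bind unusual RNA and signal through MAVS on mitochondria, while DNA is read by cGAS, whose product cGAMP activates STING (Tmem173). Both routes meet at the kinase TBK1, which phosphorylates IRF3, and IRF3 switches on type I interferon genes. Interferon in turn raises the transcription of several sensors, and nucleases such as TREX1 remove the cell's own nucleic acid before it can be sensed. In fat these proteins are made by adipocytes, macrophages and other cells of the tissue.

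The gene whose deletion defines the groups did not check the labels. Cul3 was at 11.4, 9.66, 12.4 and 11.5 FPKM (read fragments scaled by gene length in kilobases and by 1000000 mapped) in WT1 to WT4, and at 10.6, 11.2, 13.2 and 13.0 FPKM in KO1 to KO4. The groups overlapped (exact two-sided permutation test, p = 0.429; log2 fold change 0.09 ± 0.10, limma adjusted p = 0.520), and a value per gene does not separate deleted exons from the rest. The groups are therefore called WT and KO-labelled, and every direction rests on the labels. Depth, recovered from the values, was 15.17 to 19.68 M reads in listed genes per library (1 M is 1000000 reads). This was 74.1% to 78.7% of the reads that FPKM is scaled by in WT, and 62.6% to 66.1% of them in the other group. Of 14400 genes tested, 1689 were higher and 2683 lower. Scaling each library to a sum of 1000000 gave 4226 and 1190, and it shifted the median over the tested genes from -0.02 to 0.24 (log2). The tissue held its adipocyte markers in every library, with a summed level of 4991 to 8211 FPKM in WT, against 2909 to 4042 FPKM with the KO label, and 11 of 12 were lower. Among libraries that stood apart, WT4 had summed macrophage markers of 1574 FPKM, against 582 to 672 FPKM in WT1 to WT3. WT2 and WT1 carried liver genes (465 and 128 FPKM summed, at most 35.3 FPKM elsewhere), and KO1 and WT2 carried epididymis genes (214 and 56.4 FPKM, at most 8.37 FPKM elsewhere).

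The sensors were higher in the KO-labelled fat and the genes of the proteins that relay their signal were not called in the fit of all 8 libraries as deposited. Zbp1 rose from 2.40 ± 0.635 to 11.8 ± 1.80 FPKM, and the 3 RNA sensors Dhx58, Ifih1 and Ddx58 rose by 1.11, 0.86 and 0.78 on the log2 scale. In that fit Mavs, Tmem173, Tbk1 and Irf3 did not pass, each with a log2 fold change between -0.12 and 0.09. Tbk1 was called higher when scaled to a sum of 1000000, and Tmem173 without WT4 and KO4. Samhd1 also rose, with overlapping groups. All 9 members passed the filter of a mean of at least 0.5 FPKM. Of these 9, 5 were called higher (55.6%, beside 11.7% of all genes tested) and 0 lower (beside 18.6% of all genes tested). None was lower by limma at an unadjusted p under 0.05 or by voom, a model of the recovered reads. In 4 of the 9 every KO-labelled library lay above every WT library, as in 12.1% of all genes tested. Each change is a difference of mean log2(FPKM + 0.5) with limma's standard error, and the threshold for a call is 0.05, adjusted over every gene tested. This is bulk tissue, where more cells of a type and more RNA per cell cannot be told apart.

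**Figure D1:**
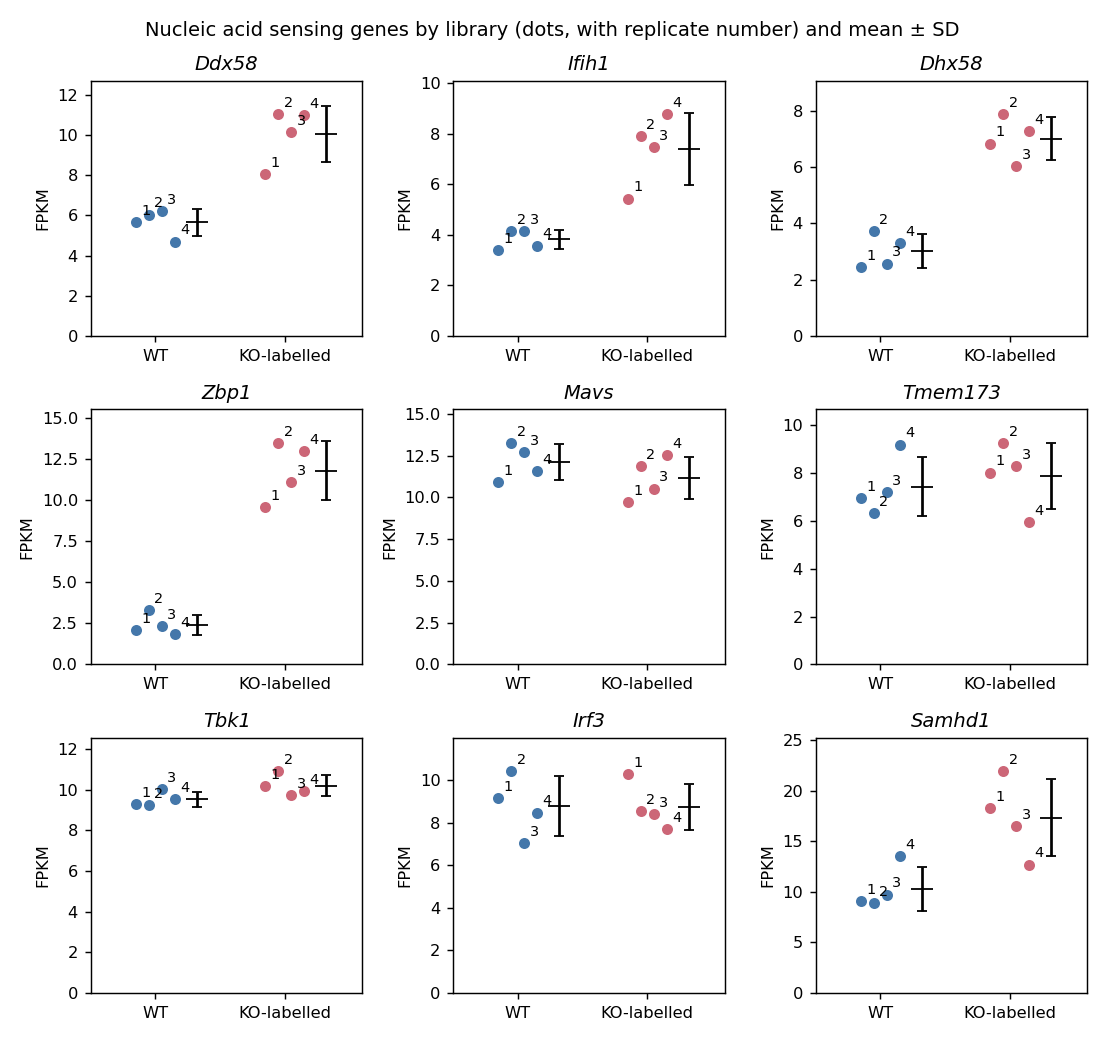
Level of each of the 9 measured genes in FPKM (y axis, from 0) in the 4 WT libraries (blue) and the 4 KO-labelled libraries (red). Dots are libraries with their replicate number, and the black marks are the mean ± SD. In the panels of Ddx58, Ifih1, Dhx58 and Zbp1 the red dots all lie above the blue ones, and in the other 5 panels the groups overlap.

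Ddx58 (ENSMUSG00000040296, chromosome 4, 40203773 to 40239828, build GRCm38) encodes RIG-I, a helicase that recognises short RNA ends. Its level was 5.67, 6.04, 6.20 and 4.70 FPKM in WT1 to WT4, against 8.06, 11.0, 10.1 and 11.0 FPKM in KO1 to KO4. KO1 was the lowest of its group and still above all 4 WT libraries. On the log2 scale it rose by 0.78 ± 0.12 (limma adjusted p = 0.00213).

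Ifih1 (chromosome 2, 62595798 to 62646255) encodes MDA5, which prefers long RNA duplexes. It stood at 3.39, 4.14, 4.16 and 3.57 FPKM in WT1 to WT4, against 5.43, 7.89, 7.46 and 8.77 FPKM in KO1 to KO4. Again KO1 was the lowest of its group, above every WT library (0.86 ± 0.14, limma adjusted p = 0.00254).

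Dhx58 (chromosome 11, 100694884 to 100704271) encodes LGP2, a relative of both that lacks the signalling domains and adjusts their response. WT1 to WT4 gave 2.45, 3.73, 2.57 and 3.31 FPKM, and KO1 to KO4 gave 6.84, 7.88, 6.04 and 7.30 FPKM. The lowest KO-labelled library, KO3, was above the highest WT library, WT2 (1.11 ± 0.13, limma adjusted p = 0.000644). Of its exon bases, 4.31% are shared with Dhx58os on the other strand, and reads of the 2 cannot be told apart where they overlap if strand was not used in the counting.

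Zbp1 (chromosome 2, 173206612 to 173218923) encodes a sensor of left-handed nucleic acid that can start cell death through RIPK3. It had the largest change of the members. It was at 2.10, 3.31, 2.32 and 1.87 FPKM in WT1 to WT4, from as few as 162 reads, and at 9.59, 13.5, 11.1 and 13.0 FPKM in KO1 to KO4. The lowest KO-labelled value was well above the highest WT value (2.10 ± 0.16, limma adjusted p = 9.06e-05), and 48 called genes of the whole table had a larger rise.

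A ratio of 2 genes within a library does not change when the whole library is multiplied by 1 factor, although quantile normalization can change it, and each RNA sensor was also set against Mavs, the adaptor through which RIG-I and MDA5 signal. Ddx58 stood at 0.407 to 0.519 of the Mavs level in WT, against 0.827 to 0.965 with the KO label. For Ifih1 the ratio was 0.309 to 0.327 in WT, against 0.558 to 0.709 with the KO label, and for Dhx58 it was 0.202 to 0.286 and 0.575 to 0.702. No range overlapped, and each gave the smallest p that 4 against 4 allows (exact two-sided permutation test, p = 0.0286; 0.0571 after Benjamini-Hochberg adjustment over the 6 ratios computed). Ratios among the 3 sensors overlapped between the groups. Dhx58 was at 0.415 to 0.703 of the Ddx58 level in WT, against 0.596 to 0.849 with the KO label (exact p = 0.171, adjusted 0.257), and Ifih1 at 0.598 to 0.760 and 0.675 to 0.798 (exact p = 0.257, adjusted 0.257). Dhx58 over Ifih1 was 0.619 to 0.926 and 0.810 to 1.26 (exact p = 0.229, adjusted 0.257). These ratios were chosen after the values were seen. The 3 sensors were then known to be apart between the groups and Mavs to overlap. The p-values of the ratios to Mavs therefore add no separate support.

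RefSeq promoter windows (build GRCm38.p6, 250 bases before to 50 after a transcript's start) were at hand for 6 of the 9 measured genes: Ddx58, Ifih1, Mavs, Tbk1, Irf3 and Samhd1. Both RNA sensors with a window held the core of the interferon-stimulated response element, GAAANNGAAA on either strand, and none of the other 4 did. Of all 32851 windows, 3.44% held it. The shorter pair AANNGAAA, part of every such core, was searched after the sequences were seen and was also found in those 2 windows only, beside 23.9% of all windows. The gamma-activated site, TTCNNNGAA, was in the Samhd1 window (8.30% of all windows), and TGACNNNGC, the core of the antioxidant response element, in the Mavs window (12.4%). A match is a description of the letters and shows no binding. The windows of the 2 RNA sensors and, for comparison, of Mavs are printed on the gene's strand because the sensors rose and Mavs did not pass, with GAAANNGAAA and AANNGAAA matches of either strand in capitals.
Ddx58, chr4:40239776-40240075, minus strand: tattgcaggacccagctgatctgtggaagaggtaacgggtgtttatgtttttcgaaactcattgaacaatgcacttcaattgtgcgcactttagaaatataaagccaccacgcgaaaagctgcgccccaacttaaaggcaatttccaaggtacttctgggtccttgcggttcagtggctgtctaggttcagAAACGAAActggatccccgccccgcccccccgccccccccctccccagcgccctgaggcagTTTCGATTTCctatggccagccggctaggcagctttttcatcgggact
Ifih1, chr2:62646206-62646505, minus strand: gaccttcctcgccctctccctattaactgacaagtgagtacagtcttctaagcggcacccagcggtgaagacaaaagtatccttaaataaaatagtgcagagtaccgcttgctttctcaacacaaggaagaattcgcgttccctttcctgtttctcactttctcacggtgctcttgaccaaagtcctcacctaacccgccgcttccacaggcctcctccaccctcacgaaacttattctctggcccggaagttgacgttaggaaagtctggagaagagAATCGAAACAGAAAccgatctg
Mavs, chr2:131233813-131234112, plus strand: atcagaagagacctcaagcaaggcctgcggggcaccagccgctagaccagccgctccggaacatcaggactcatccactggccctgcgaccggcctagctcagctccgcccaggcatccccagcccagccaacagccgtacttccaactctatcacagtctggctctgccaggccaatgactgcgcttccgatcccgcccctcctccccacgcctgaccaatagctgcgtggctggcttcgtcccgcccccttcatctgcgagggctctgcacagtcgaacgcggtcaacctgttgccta
Counting the first transcribed base as 0, the core lay at bases 2 to 11 in Ddx58, on the opposite strand, and at bases 32 to 41 in Ifih1, on the gene's strand. In Ddx58 a further AANNGAAA pair lay at -59 to -52. No capitals appear in the Mavs window.

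The adaptors, the kinase and the transcription factor overlapped between the groups. Mavs (chromosome 2, 131234063 to 131248025) was at 10.9, 13.3, 12.7 and 11.6 FPKM in WT1 to WT4, against 9.74, 11.9, 10.5 and 12.5 FPKM in KO1 to KO4. Its log2 fold change was -0.12 ± 0.10 (limma adjusted p = 0.408), with a 95% interval of the ratio from 0.789 to 1.08, and its sign turned under 2 of the 3 scalings tried (0.15 scaled to a sum of 1000000, 0.01 with quantile normalization). KO1 was lowest and WT2 highest, and the other 6 libraries were mixed.

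Tbk1 (chromosome 10, 121546455 to 121586787), is the kinase shared by both routes. WT1 to WT4 gave 9.29, 9.23, 10.03 and 9.54 FPKM and KO1 to KO4 gave 10.2, 10.9, 9.75 and 9.93 FPKM. Only WT3 lay inside the KO-labelled range (0.09 ± 0.07, limma adjusted p = 0.310, 95% interval of the ratio 0.962 to 1.18). Scaled to a sum of 1000000 it was called higher (0.37, adjusted p = 0.00985), where the median of all genes was 0.24.

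Irf3 (chromosome 7, 44997648 to 45002848) was at 9.15, 10.4, 7.03 and 8.47 FPKM in WT1 to WT4, against 10.3, 8.55, 8.40 and 7.70 FPKM in KO1 to KO4. The WT range spanned that of the other group (-0.00 ± 0.13, limma adjusted p = 0.998, 95% interval of the ratio 0.817 to 1.22). It shares 2.56% of its exon bases with Bcl2l12 on the other strand.

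Tmem173, the STING gene, stood at 6.97, 6.33, 7.22 and 9.19 FPKM in WT1 to WT4, against 8.02, 9.27, 8.30 and 5.97 FPKM in KO1 to KO4. WT4 was the highest WT library and KO4 the lowest of all 8 (0.08 ± 0.15, limma adjusted p = 0.716, 95% interval of the ratio 0.836 to 1.33). Without WT4 and KO4 it was called higher, by 0.30 (adjusted p = 0.0438).

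**Figure D2:**
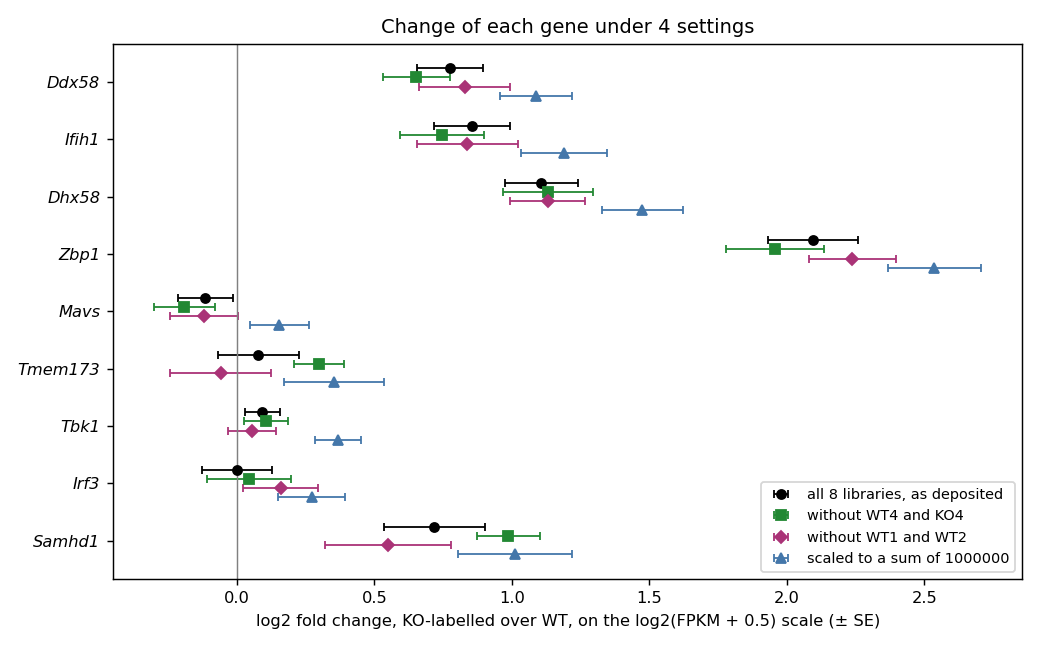
Log2 fold change, KO-labelled over WT, on the log2(FPKM + 0.5) scale (x axis) for each gene, with limma's SE, under 4 settings. The RNA sensors and Zbp1 stay right of 0 in all 4, Mavs, Tmem173, Tbk1 and Irf3 range from -0.19 to 0.37 with signs that turn for Mavs, Tmem173 and Irf3, and Samhd1 ranges from 0.55 to 1.01.

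Samhd1 (chromosome 2, 157097533 to 157135265) encodes an enzyme that removes the building blocks of DNA and is abundant in myeloid cells. It was at 9.11, 8.88, 9.74 and 13.5 FPKM in WT1 to WT4, against 18.3, 22.0, 16.5 and 12.7 FPKM in KO1 to KO4. WT4 lay above KO4, so the groups overlapped (0.72 ± 0.18, limma adjusted p = 0.0188). The call was lost without WT1 (0.67, adjusted p = 0.0556), without WT2 (0.66, adjusted p = 0.0511) and without both (0.55, adjusted p = 0.167). Without WT4 and KO4 the change was 0.99 (adjusted p = 0.00113).

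Macrophage RNA differed between libraries and is set beside the members here. The 15 macrophage markers summed to 672, 588, 582 and 1574 FPKM in WT1 to WT4 against 1862, 1769, 1329 and 800 FPKM in KO1 to KO4. Of these, 7 were higher and 0 lower (limma; 10 and 0 at an unadjusted p under 0.05, 7 and 0 by voom), and none was at 0 in every library. In both groups the library with the most Samhd1 was among those with the most macrophage RNA, and WT4 and KO4 changed places for Samhd1 and Tmem173. The part of these cells in the changes was not tested. For the sensors, WT4 had 1574 FPKM of macrophage markers, with Zbp1 at 1.87, Ddx58 at 4.70, Ifih1 at 3.57 and Dhx58 at 3.31 FPKM. KO4 had 800 FPKM of these markers, and the same genes were at 13.0, 11.0, 8.77 and 7.30 FPKM. Within WT, WT4 was the lowest library for Zbp1 and Ddx58 but not for Ifih1 and Dhx58. Without WT4 and KO4 the sensors kept their calls, at 1.96 for Zbp1, 1.13 for Dhx58, 0.75 for Ifih1 and 0.65 for Ddx58. The macrophage sums of the remaining libraries were also apart, at 582 to 672 FPKM in WT1 to WT3 against 1329 to 1862 FPKM in KO1 to KO3. That fit therefore cannot separate the sensors from macrophage RNA. The same limit holds for the other genes called in it, among them Tmem173, and Cgas and Mlkl below. Beside this, summed T cell markers, all low, were 1.36 to 2.97 FPKM in WT, against 3.64 to 7.0 FPKM with the KO label (limma: 1 of 2 tested markers higher and 0 lower; 1 and 1 at an unadjusted p under 0.05, 1 and 1 by voom). Of the 2 tested, Lck was called higher (0.84 ± 0.20, limma adjusted p = 0.0137), and Cd247 went the other way (-0.54 ± 0.18, limma adjusted p = 0.0514). Under the filter on low values, Cd3e, Cd3g, Cd4, Cd8a and Cd8b1 each had every KO-labelled library above every WT library. Their means ran from 0.0830 to 0.112 FPKM in WT and from 0.464 to 0.895 FPKM with the KO label, from as few as 1 read in a library. Cd3d, also under the filter, overlapped. Plasmacytoid dendritic cell markers, of a cell type known for interferon production, summed to 0.610 to 1.79 FPKM in WT and 0.604 to 1.23 FPKM in the other group. That sum was mostly Cox6a2 (0.793 ± 0.520 FPKM in WT, against 0.357 ± 0.148 FPKM; limma adjusted p = 0.188). Siglech was under the filter on low values and went the other way, from 0.232 ± 0.0317 to 0.446 ± 0.128 FPKM, with 3 of 4 KO-labelled libraries above every WT library. Ccr9, Pacsin1 and Klk1 were each at most 0.0724 FPKM in every library. Their part was not tested either. Of the other marker lists, all-leukocyte markers had 2 of 5 higher, neutrophil markers 1 of 2, dendritic cell markers 3 of 6 and B cell markers 1 of 1 tested. Endothelial markers had 8 of 10 lower, stromal progenitor markers 1 higher and 2 lower of 8, and liver genes 3 of 6 lower. For the liver genes 5 were lower at an unadjusted p under 0.05 by limma and 0 by voom. Their sums were largest in WT2 and WT1 and overlapped between the groups, with WT4 at 18.3 FPKM and KO1 at 19.0 FPKM. NK cell markers (1 tested), mesothelial markers (6) and epididymis genes (3) had no call by limma in either direction, none at an unadjusted p under 0.05 and none by voom.

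**Figure D3:**
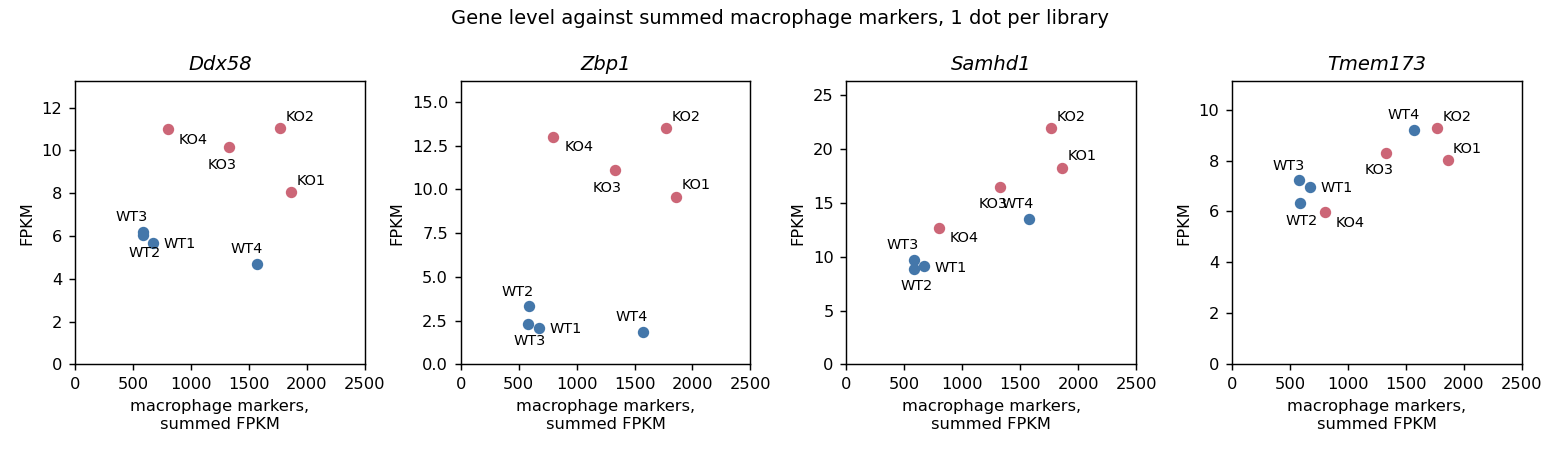
FPKM of Ddx58, Zbp1, Samhd1 and Tmem173 (y axes) against the summed FPKM of 15 macrophage markers (x axis), 1 dot per library, WT blue and KO-labelled red. For Ddx58 and Zbp1 every red dot lies above every blue one, and for Samhd1 and Tmem173 the library WT4 lies above KO4.

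The order of the members by level, which FPKM allows since it is per length, differed between the groups. In WT it ran from Mavs (12.1 FPKM) through Samhd1 (10.3), Tbk1 (9.52), Irf3 (8.77) and Tmem173 (7.43) to the 4 sensors Ddx58 (5.65), Ifih1 (3.82), Dhx58 (3.01) and Zbp1 (2.40 FPKM). Of neighbours in this order, the ranges were apart only between Tmem173 and Ddx58 and between Ddx58 and Ifih1. In the KO-labelled group Samhd1 (17.4 FPKM) and Zbp1 (11.8) led, before Mavs (11.2), Tbk1 (10.2), Ddx58 (10.1), Irf3 (8.73), Tmem173 (7.89), Ifih1 (7.39) and Dhx58 (7.01 FPKM), and the ranges of all neighbours overlapped. Zbp1 thus stood last in WT and next to the top in the KO-labelled group. Of the 9 measured genes, 4 lie on chromosome 2 (Ifih1, Zbp1, Mavs and Samhd1), of which 3 rose.

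Other genes of the pathway were read from 6 lists with 105 genes, of which 98 had a row and 95 were tested. Of the 95, 29 were higher (30.5%) and 8 lower (8.42%), with a median log2 fold change of 0.13, beside 11.7% higher, 18.6% lower and -0.02 over all genes tested. Scaled to a sum of 1000000 these counts were 48 and 1, and without WT1 and WT2 they were 23 and 2. Of the 29, 11 were RNA sensing genes and 8 were outputs. These genes were picked for their known roles with earlier results of these data at hand.

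In the RNA sensing list, 11 of 22 were higher and 0 lower (limma; 13 and 0 at an unadjusted p under 0.05, 12 and 0 by voom; median 0.36). Of all genes tested, 11.7% were higher and 18.6% lower. The 4 with the smallest adjusted p were genes of oligoadenylate synthetases and their relatives, which bind RNA duplexes and whose active members make the second messenger for RNase L. Oas1g went from 0.764 ± 0.179 to 5.08 ± 0.770 FPKM (2.14 ± 0.14, limma adjusted p = 3.74e-05), Oasl2 from 4.15 ± 0.955 to 17.9 ± 2.17 FPKM, Oasl1 from 1.31 ± 0.296 to 6.61 ± 1.36 FPKM and Oas1a from 3.77 ± 0.943 to 14.4 ± 1.68 FPKM. Close copies in this family can share reads, so the split between them is uncertain. Every listed gene of the family was called higher (Oas1a, Oas1c, Oas1g, Oas2, Oas3, Oasl1 and Oasl2). Outside it the calls of this list were only Trim25, Zc3hav1, Adar and Eif2ak2, so the count rests largely on 1 family. Trim25, a ubiquitin ligase linked to RIG-I activation, was at 12.8, 11.8, 12.9 and 15.4 FPKM in WT1 to WT4, against 19.4, 22.7, 21.5 and 19.6 FPKM in KO1 to KO4 (0.64 ± 0.10, limma adjusted p = 0.00179). Adar, which edits the cell's own RNA duplexes so that MDA5 ignores them, went from 3.78 ± 0.444 to 6.01 ± 0.400 FPKM (0.61 ± 0.09, adjusted p = 0.00164). Trim25, Adar, Zc3hav1, Eif2ak2, Oas1c, Oas2 and Oas3 were named after their values were seen, as were Cgas, Ripk3 and Mlkl below.

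In the DNA sensing list, 4 of 21 were higher and 2 lower (limma; 8 and 5 at an unadjusted p under 0.05, 6 and 3 by voom; median -0.11). Over all genes tested, 11.7% were higher and 18.6% lower. Cgas itself was at 0.627, 0.718, 0.666 and 1.18 FPKM in WT1 to WT4, against 1.33, 1.48, 1.39 and 0.979 FPKM in KO1 to KO4. It missed the threshold (0.48 ± 0.16, limma adjusted p = 0.0522) with WT4 again above KO4, and it passed under 7 of 20 alternatives, among them voom (adjusted p = 0.0350), without WT4 (0.0121), without KO4 (0.0362) and without both (0.00501). Ifi204, of the p200 family of DNA-binding proteins, rose from 6.72 ± 1.91 to 24.5 ± 2.88 FPKM (1.82 ± 0.17), with close copies that may share reads. Stim1, a calcium sensor known to hold STING in the endoplasmic reticulum, rose from 8.25 ± 1.39 to 12.9 ± 0.622 FPKM (0.63 ± 0.11). Polr3g, a subunit of RNA polymerase III, which can copy cytosolic DNA into RNA, fell from 2.64 ± 0.212 to 1.12 ± 0.323 FPKM (-0.97 ± 0.14). Banf1, which coats cytosolic DNA, fell from 31.6 ± 5.15 to 21.5 ± 3.53 FPKM (-0.54 ± 0.15, limma adjusted p = 0.0248). That call was lost without WT1 (adjusted p = 0.0728), WT2 (0.0653), KO2 (0.0663) or KO3 (0.0691), without WT1 and WT2 (0.208), and when scaled to a sum of 1000000 (-0.28, 0.105) or by quantile normalization (-0.35, 0.0680).

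**Figure D4:**
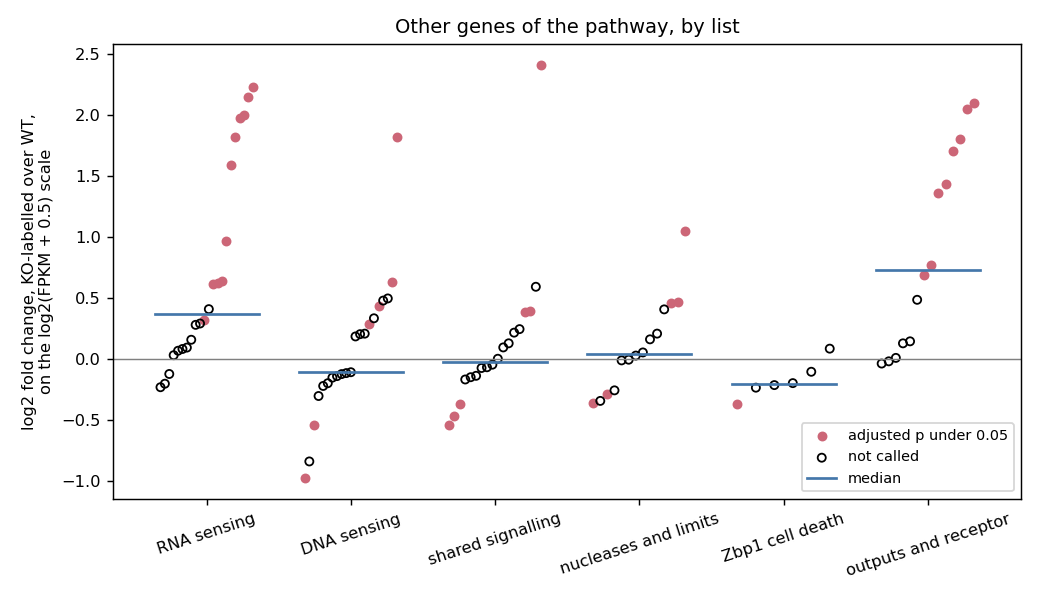
Log2 fold change, KO-labelled over WT, on the log2(FPKM + 0.5) scale (y axis) of the 95 tested genes in 6 lists of the pathway (x axis). Red dots were called, open dots were not, and blue lines are list medians. Most red dots above 1 are in the RNA sensing and output lists.

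Among shared signalling genes, 3 of 18 were higher and 3 lower (limma; 4 and 3 at an unadjusted p under 0.05, 4 and 3 by voom; median -0.02). The shares over all genes tested were 11.7% higher and 18.6% lower. Irf7, the interferon-inducible relative of Irf3, was at 4.50, 7.42, 4.21 and 3.77 FPKM in WT1 to WT4, against 26.2, 28.8, 23.8 and 32.8 FPKM in KO1 to KO4 (2.41 ± 0.19, limma adjusted p = 0.000107), whereas Irf3 had a ratio of 0.996. Ikbkg, the NEMO subunit of the IKK complex, rose from 5.86 ± 0.478 to 7.84 ± 0.630 FPKM (0.39 ± 0.08). Tank, a scaffold that binds TBK1, fell from 8.13 ± 0.887 to 5.72 ± 0.534 FPKM (-0.47 ± 0.10), and Optn, an autophagy receptor that TBK1 phosphorylates, from 22.5 ± 2.69 to 15.3 ± 2.10 FPKM (-0.54 ± 0.12). Scaled to a sum of 1000000 neither fall was called (-0.23, adjusted p = 0.199 and -0.28, adjusted p = 0.0680), and that of Optn was also lost without WT1 and WT2 (adjusted p = 0.0862).

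Of 14 tested nucleases and other limits on self nucleic acid, 3 were higher and 2 lower (limma; 3 and 3 at an unadjusted p under 0.05, 3 and 3 by voom; median 0.04). Among all genes tested, 11.7% were higher and 18.6% lower. Rnaseh2a, the catalytic subunit of RNase H2, rose from 2.60 ± 0.327 to 3.75 ± 0.302 FPKM (0.46 ± 0.10). Pld4, a lysosomal nuclease known from myeloid cells, went from 9.98, 9.21, 11.5 and 17.0 FPKM in WT1 to WT4 to 30.03, 30.8, 23.6 and 16.6 FPKM in KO1 to KO4 (1.05 ± 0.24, limma adjusted p = 0.0118). As for Samhd1, WT4 lay above KO4, and the call was lost without WT1 and WT2 (0.79, adjusted p = 0.121). Pnpt1, a mitochondrial RNA exonuclease, rose from 5.80 ± 0.779 to 8.20 ± 1.09 FPKM (0.46 ± 0.12, limma adjusted p = 0.0188), a call lost without WT1 (adjusted p = 0.0537), WT2 (0.0514) or KO3 (0.0564), without WT1 and WT2 (0.160), and without WT4 and KO4 (0.0714). Skiv2l, the helicase of the cytosolic RNA exosome, fell from 13.5 ± 1.67 to 10.4 ± 0.452 FPKM (-0.36 ± 0.09, limma adjusted p = 0.0194). This was lost without WT1 (0.0580), KO3 (0.0532) or both WT1 and WT2 (0.134), and when scaled to a sum of 1000000 (-0.10, 0.387) or by quantile normalization (-0.23, 0.0670).

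Of 6 tested genes through which ZBP1 starts cell death, 0 were higher and 1 lower (limma; 0 and 3 at an unadjusted p under 0.05, 0 and 1 by voom; median -0.21). Both counts lie near the shares of all genes tested (11.7% and 18.6%). Ripk3, the kinase that ZBP1 binds, was at 3.99, 3.86, 3.48 and 4.42 FPKM in WT1 to WT4, against 3.95, 3.26, 3.51 and 2.80 FPKM in KO1 to KO4 (-0.20 ± 0.11, limma adjusted p = 0.198). Mlkl, which opens the membrane downstream of RIPK3, was at 9.18 ± 0.899 and 7.72 ± 0.634 FPKM (-0.23 ± 0.09, adjusted p = 0.0824), and it passed without WT4 (-0.29, 0.0404) and without WT4 and KO4 (-0.33, 0.0297). Casp8, a protease that restrains this route, was at 16.2 ± 1.49 and 13.9 ± 1.23 FPKM (-0.21 ± 0.09, adjusted p = 0.109). Scaled to a sum of 1000000 the signs of Ripk3, Mlkl and Casp8 turned (0.05, 0.03 and 0.05), with no call. Fadd, an adaptor of Casp8, fell from 2.93 ± 0.252 to 2.17 ± 0.412 FPKM (-0.37 ± 0.12, adjusted p = 0.0430), but it kept this call under only 8 of 20 alternatives. Among the 12 that lost it were leaving out WT1, WT2, WT3, WT4, KO1, KO3 or KO4 alone (adjusted p = 0.0530 to 0.109).

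Of 14 tested outputs and interferon receptor genes, 8 were higher and 0 lower (limma; 9 and 0 at an unadjusted p under 0.05, 8 and 0 by voom; median 0.73). Beside this, 11.7% of all genes tested were higher and 18.6% lower. Ifit1, an antiviral protein gene that IRF3 can switch on directly, was at 2.89, 4.90, 3.07 and 2.54 FPKM in WT1 to WT4, against 10.4, 18.5, 13.9 and 19.2 FPKM in KO1 to KO4 (2.05 ± 0.23, limma adjusted p = 0.000506). Usp18, which damps interferon receptor signalling, rose from 1.46 ± 0.651 to 7.60 ± 1.17 FPKM (2.10 ± 0.22) and Rsad2, which encodes viperin, from 3.26 ± 0.366 to 9.71 ± 1.79 FPKM (1.43 ± 0.13). Ccl5, a chemokine gene also expressed by T cells, rose from 2.15 ± 0.652 to 8.05 ± 1.93 FPKM (1.70 ± 0.22), beside the T cell marker sums given above, whose part was not tested. The interferon genes Ifnb1, Ifna2, Ifna4, Ifna5 and Ifne were not analysed here.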

How the data were processed

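Poly(A) RNA of epididymal fat was sequenced in 8 libraries, 4 per group. Per the submitters' processing notes, reads were handled with HISAT2 2.0.5 and featureCounts on mm10. Annotation release and strand setting are not given in the sources used here. FPKM values of 28295 genes for each library were deposited by the authors. Symbols were taken by gene ID, coordinates and exon lengths from GENCODE M21 (GRCm38), and promoter windows from RefSeq. FPKM values stepped in whole reads. Between 0.5 and 200 reads, 97.9% of values were whole to within 0.02.

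All 8 libraries entered 1 fit of log2(FPKM + 0.5) with no covariate: limma 3.58.1 in R 4.3.3, limma-trend with robust moderation, two-sided, Benjamini-Hochberg adjusted over 14400 genes whose mean reached 0.5 FPKM. Single values were tested by exact permutation (scipy 1.17.1). Alternatives were 2 pseudocounts, 2 filters, 3 scalings beside the deposited values, voom on recovered reads, no trend, a replicate block, each library left out, and 2 pairs of libraries left out. The members and lists were chosen with earlier results of these data known. From each pathway list the text names up to 4 called genes by adjusted p, or, with fewer than 2 calls, also the highest by mean FPKM. Lists of 14 cell types served as markers: macrophages, all leukocytes, T, B and NK cells, neutrophils, dendritic and plasmacytoid dendritic cells, adipocytes, endothelium, stromal progenitors, mesothelium, liver and epididymis.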

Additional observations from a re-analysis of the deposited data

Results flagged for a closer look

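Of 92 groups of 4 libraries checked by Dixon's test, 11 had a library apart from the other 3, and chance alone flags about 5% of groups. None of the 9 measured members was among them. Among marker sums, WT4 stood apart from the other WT libraries for macrophage markers (1574 FPKM, others 582 to 672), all-leukocyte markers (134 FPKM, others 52.3 to 60.6), endothelial markers (251 FPKM, others 348 to 353) and stromal progenitor markers (500.3 FPKM, others 299 to 332). KO4 stood apart for neutrophil markers (18.6 FPKM, others 9.54 to 11.0). Epididymis markers set WT2 (56.4 FPKM, others 0 to 2.49) and KO1 (214 FPKM, others 0.398 to 8.37) apart. Among pathway genes, Oasl2 was high in WT2 (5.57 FPKM, others 3.53 to 3.84), Oasl1 low in WT3 (0.870 FPKM, others 1.43 to 1.48), Oas1a high in WT4 (5.18 FPKM, others 3.20 to 3.41) and Optn high in KO4 (18.4 FPKM, others 14.0 to 14.7).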

How the results depend on the processing

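Zbp1, Dhx58, Ifih1 and Ddx58 kept direction and call under all 20 alternatives, with adjusted p of at most 0.00154, 0.00531, 0.0332 and 0.0251. Of the 9 measured members, 4 to 6 were higher and 0 lower under every alternative. Samhd1 lost its call with a replicate block (adjusted p = 0.0758) and without WT1 and WT2 (log2 fold change 0.55, adjusted p = 0.167). Libraries with the same number did not deviate together over the genes tested (correlations -0.0605, -0.131, 0.169 and -0.317 for numbers 1 to 4). These correlations cannot exclude a shared litter, batch or day, which the labels do not state, so a pairing is unknown. With the block 4 members, 26 pathway genes and 1113 of all genes were higher, and Pld4 lost its call (adjusted p = 0.0607).

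Some uncalled members changed sign. Irf3 was 0.27 scaled to a sum of 1000000, 0.0366 by median-of-ratios scaling, 0.0854 by quantile normalization, 0.00158 by voom, 0.16 without WT1 and WT2, 0.0427 without WT4 and KO4, and -0.0959 to 0.0825 with 1 library left out. Mavs was 0.15 scaled to a sum of 1000000 and 0.00545 by quantile normalization. Tmem173 was -0.0598 without WT1 and WT2, and -0.00034 to 0.198 with 1 library left out. Casp8, Ripk3 and Mlkl were 0.0538, 0.0481 and 0.0260 scaled to a sum of 1000000, where Cul3 was 0.37 (adjusted p = 0.0477). The cause was not tested.

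Pathway genes lower were 5 with no filter, 1 scaled to a sum of 1000000 (48 higher), 5 by median-of-ratios scaling, 4 by quantile normalization, 2 without WT1 and WT2, and 3 to 8 with 1 library left out. Over all genes, 4226 were higher and 1190 lower scaled to a sum of 1000000, 722 and 1036 without WT1 and WT2, and 1089 to 1937 higher with 1 library left out. Marker genes, 16 higher and 24 lower in the fit as reported, were 10 higher with no filter, 7 with the block, 4 higher and 14 lower without WT1 and WT2, 27 higher without WT4 and KO4, and 6 to 26 higher and 15 to 27 lower with 1 library left out. Depth limits most the low genes: Ccl5, Oas1g and Oasl1 had as few as 29, 35 and 52 reads in a library, and Zbp1 had at least 162.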
